A study of Mus musculus with 231 samples.

Results

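MicroRNA levels in blood at the sampling point labelled L were compared with those at point 1 in the 5 CM mice of the validation cohort that have both libraries. The comparison rests on 10 libraries, points L and 1 of mice 2690, 2708, 2718, 2719 and 2731, out of 60 CM libraries of the validation cohort and 231 libraries in the series. The mice were chosen only by having a library labelled L, not by any measured value. All lists of 5 values below follow the order 2690, 2708, 2718, 2719 and 2731.

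CM mice carry the conditional Cbfb-MYH11 knock-in allele with Mx1-Cre on a C57BL/6 background and the genotype label CHW, and 3 of the 5 were female and 2 male. The fusion gene is the one found in acute myeloid leukemia (AML) with inv(16). Its expression was induced at 6 to 8 weeks of age with 7 doses of poly(I:C) at 14 mg/kg. Mx1-Cre is active in many hematopoietic cells and also in other tissues, so recombination is not confined to one blood lineage. Small RNA was sequenced from peripheral blood mononuclear cells (PBMC). The 6 Ctrl mice, labelled CW, HW or WT and given the same injections, and the 4 CM mice that have points 1 and 7 but no L serve as background. The labels do not say what L stands for or when it was drawn. It was taken to follow the highest numbered point of each mouse, since no later point exists. That was point 4 in mice 2690, 2708 and 2719, point 6 in mouse 2718 and point 3 in mouse 2731. Sampling point and preparation batch of the validation libraries cannot be told apart here.

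A mature miRNA of about 22 bases is cut from one arm of a hairpin and guides silencing of messenger RNAs that pair with its seed, bases 2 to 8. The arms of one hairpin, and miRNAs transcribed together as a cluster, are made from the same precursor but can accumulate to different levels. Blood miRNAs largely mark cell types: miR-142 is found across hematopoietic cells, miR-451a in erythroid cells, miR-150 in mature lymphocytes and miR-223 in myeloid cells. MiR-126 is known from endothelium and from hematopoietic stem cells.

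The sequences below are those the comparison turns on, printed 5′ to 3′ with the seed in capitals, from RefSeq on GRCm38.p6. A sequence was found for 22 of the 24 miRNAs called on both scales described below. The first 7 were higher at L, and miR-126a-3p is given for comparison with miR-126b-5p.
miR-126b-5p: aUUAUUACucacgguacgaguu
miR-21a-5p: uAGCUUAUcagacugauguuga
miR-3963: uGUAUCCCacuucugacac
miR-99b-5p: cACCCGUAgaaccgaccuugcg
miR-7652-3p: uCUGGCUUuccuguggcuucu
miR-148a-3p: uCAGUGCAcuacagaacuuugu
miR-10b-5p: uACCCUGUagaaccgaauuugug
miR-126a-3p: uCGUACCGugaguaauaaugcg

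The next sequences belong to miRNAs that were lower at L, and miR-142a-3p, the other arm of the miR-142a hairpin, is given for comparison.
miR-3620-3p: cUGCUCAGccccgcccacccca
miR-23a-3p: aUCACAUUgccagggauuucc
miR-6937-5p: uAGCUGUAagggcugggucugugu
let-7i-5p: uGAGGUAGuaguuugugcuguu
let-7j: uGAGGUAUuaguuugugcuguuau
miR-142a-5p: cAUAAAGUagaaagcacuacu
miR-93-5p: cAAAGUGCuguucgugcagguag
miR-451a: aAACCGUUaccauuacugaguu
miR-142a-3p: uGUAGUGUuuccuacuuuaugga

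MiR-126b-5p and miR-126a-3p lie on opposite strands of the same locus, at chr2:26591399-26591420 on the minus strand and chr2:26591402-26591423 on the plus strand, and 19 of their 22 bases are complementary. Counting without strand could therefore exchange their reads, and the strand setting is not given in the sources used here. MiR-23a-3p lies at chr8:84208563-84208583 on the plus strand. MiR-21a-5p lies at chr11:86584120-86584141 on the minus strand and miR-3620-3p at chrX:150547385-150547406 on the minus strand. None of these 22 shared its seed with another of them, although miR-99b-5p shared the seed ACCCGUA with miR-99a-5p, which was called on the deposited scale alone. Let-7i-5p and let-7j share a run of 14 bases, and their values are not independent where reads could match either.

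The main change between the points was in miR-5099, which took nearly all reads at point 1 and far fewer at L. At point 1 it held 97.4%, 97.7%, 97.7%, 98.2% and 96.8% of miRNA reads. At L it held 71.1%, 68.9%, 36.7%, 52.4% and 85.9%, below every point 1 library. The log2 odds of miR-5099 fell by 4.46 ± 1.53 (SD of the paired differences, n = 5 mice), in 5 of 5 mice (exact sign-flip permutation test, two-sided, p = 0.063, the smallest p that 5 pairs allow). Total reads fell as well, from 23946, 26881, 26392, 26482 and 40253 at point 1 to 8931, 4220, 2547, 8444 and 16945 at L.

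Reads of all other miRNAs moved the opposite way. They numbered 620, 615, 612, 476 and 1298 at point 1 and 2579, 1312, 1613, 4016 and 2383 at L, so that every L library held more than every point 1 library. The mean log2 difference was 1.70 ± 0.89 (SD, exact permutation test, p = 0.063, again the smallest possible). The number of miRNAs above 0 reads was 160 to 340 at point 1 and 164 to 328 at L, and did not separate the points (exact permutation test, p = 0.9375). In PBMC a lower level of a miRNA can come from fewer cells of a type or from less RNA per cell, which cannot be told apart here.

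**Figure D1:**
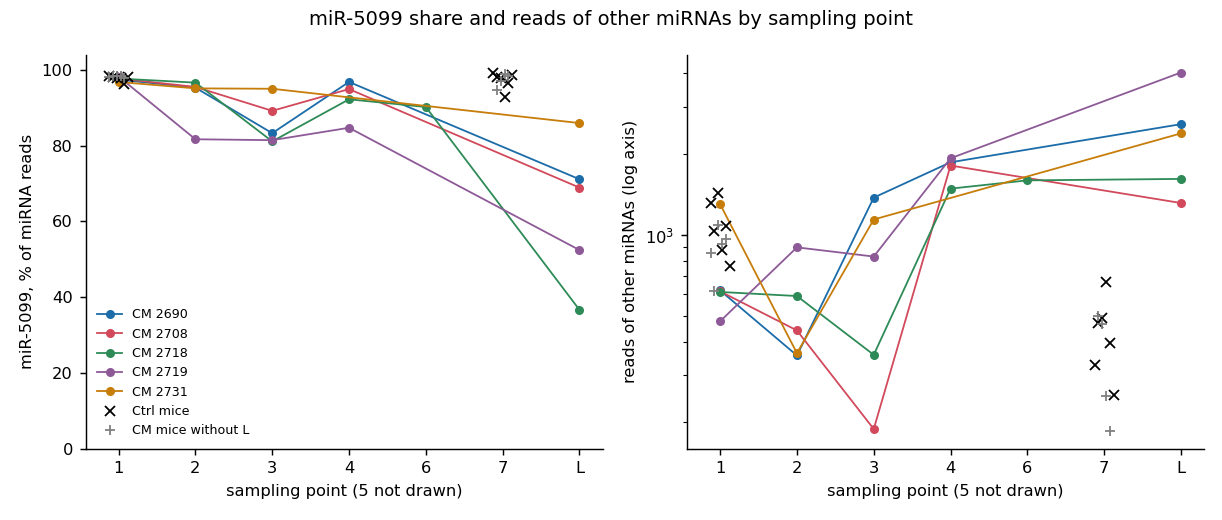
Left, percent of miRNA reads that are miR-5099. Right, number of reads of all other miRNAs on a log axis. Lines join the libraries of each of the 5 CM mice with a point L by sampling point, without point 5 of mouse 2718, whose share of miR-5099 was below that of every library drawn, and crosses and plus signs are libraries of the 6 Ctrl mice and of the CM mice without L at points 1 and 7, spread sideways for legibility. At L the 5 mice lie between 36.7% and 85.9% miR-5099, and all other libraries drawn lie at 81.1% or more.

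In the same mice miR-5099 held 81.1% to 96.8% of reads in 15 libraries of points 2, 3, 4 and 6. Point 5 of mouse 2718, a library of far greater depth with 145 reads of miR-5099 among 1645456, was left out of these ranges. At the last numbered point it held 96.8%, 94.9%, 90.2%, 84.7% and 94.98%, and each of the 5 mice already lay below its own point 1. From there to L the log2 odds fell by 2.93 (exact permutation test, p = 0.063, the smallest possible). In Ctrl mice the change from point 1 to point 7 in log2 odds was -0.07, with a range of -1.88 to 0.96 over 6 mice, and the difference from the change to L was -4.39 (exact permutation test over mice, p = 0.00216, the smallest possible). Against the 4 CM mice without L, whose change was -0.42, the difference was -4.04 (exact permutation test, p = 0.0159). Since L has no fixed time, these comparisons are not matched in time.

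Because 1 miRNA dominated the libraries, each other miRNA was followed on 2 scales. The first is the deposited value in CPM, read counts scaled to library size by the authors with TMM, analysed as log2(CPM + 20). The second is the percent of reads other than miR-5099, analysed as log2(percent + 0.1). Both were tested with limma, paired by mouse, for the 120 miRNAs, and miR-5099 on the CPM scale, that were above 0 in at least 6 of the 10 libraries. The share of all reads is also given where it turns a direction. All differences below are L minus point 1 on these log2 scales, which understate changes of rare miRNAs, and errors on them are SE.

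On the CPM scale 40 of these miRNAs were called at an adjusted p under 0.05 (33.1%), 22 higher and 18 lower at L. On the share scale 34 of 120 were called (28.3%), 7 higher and 27 lower. The split between directions moved with the scaling: the recovered reads gave 11 higher and 19 lower with DESeq2, 75 of 76 higher as a share of all reads, and 22 higher and 15 lower with edgeR and TMM on the reads other than miR-5099. The median difference over all tested miRNAs was 0.19 on the CPM scale, -0.28 on the share scale and 2.84 as a share of all reads, where 89.3% of the tested miRNAs lay above 0. The level of a miRNA relative to these medians is therefore firmer than its sign. On both CPM and share scales 24 miRNAs were called in the same direction, 7 higher and 17 lower. Of the 7, 4 met the filter only because every L library had reads of them. A further 15 were called higher and 1, miR-5099, lower on the CPM scale alone, and 10 were called lower on the share scale alone. Groups did not overlap for 22.3% of the tested miRNAs on the CPM scale, 13 with every L library above every point 1 library and 14 below. On the share scale 21.7% did not overlap, 4 above and 22 below.

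**Figure D2:**
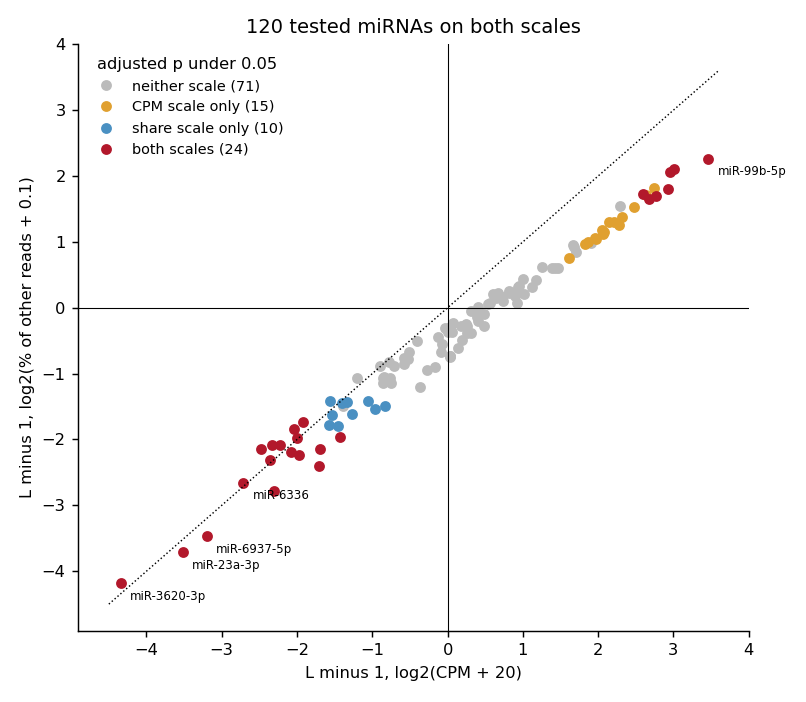
Difference between L and point 1 for 120 miRNAs tested on both scales, with log2(CPM + 20) on the x axis and log2(percent of reads other than miR-5099 + 0.1) on the y axis. Each point is 1 miRNA, colours give the scale on which it was called, and the dotted line marks equal values. The 24 miRNAs called on both scales sit at both ends, from miR-3620-3p at -4.34 and -4.18 to miR-99b-5p at 3.46 and 2.26.

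MiR-126b-5p was among the most abundant miRNAs at L. It had 8, 23, 17, 10 and 43 reads at point 1, and 1171 over the L libraries, with 600 in mouse 2731. As percent of reads other than miR-5099 these were 1.29, 3.74, 2.78, 2.10 and 3.31 at point 1 and 7.21, 8.77, 10.4, 2.54 and 25.2 at L. The share rose in 5 of 5 mice, but mouse 2719 at L overlapped the point 1 range. The difference was 2.59 ± 0.46 on the CPM scale (limma, adjusted p = 0.000438) and 1.72 ± 0.57 on the share scale (adjusted p = 0.0207). The call on the share scale was lost without mouse 2690 (limma, adjusted p = 0.230) and without mouse 2731 (adjusted p = 0.0778), and was not lost on the CPM scale without any 1 mouse.

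MiR-126a-3p, the endothelial and stem cell miRNA of the opposite strand, was near 0 in the same libraries and was not tested. It had 0, 1, 0, 0 and 1 reads at point 1 and 0, 0, 0, 7 and 2 at L. MiR-126a-5p had 0 reads in every point 1 library, and at L 5 reads in mouse 2719, 1 in mouse 2731 and 0 in the others. In the only deep library of these mice, point 5 of mouse 2718 with 1645456 reads, the order was the other way round, with 390 reads of miR-126a-3p and 60 of miR-126b-5p.

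MiR-21a-5p, a miRNA widely raised in tumors and in inflammation, was higher at L in every mouse. It had 2, 2, 5, 4 and 8 reads at point 1 and 32, 34, 17, 1020 and 35 at L. Its percent of other reads was 0.323 to 0.840 at point 1 and 1.05 to 25.4 at L, so the groups did not overlap, and the highest value was again that of 1 mouse, 2719. The difference was 3.00 ± 0.58 on the CPM scale (limma, adjusted p = 0.000949) and 2.11 ± 0.56 on the share scale (adjusted p = 0.00499). Without mouse 2719 it was 1.45 on the share scale (limma, adjusted p = 0.0821), whereas the call on the CPM scale was kept without any 1 mouse.

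MiR-3963 rose in every mouse. Its reads numbered 6, 7, 3, 3 and 11 at point 1, and at L from 23 in mouse 2718 to 171 in mouse 2731. As percent of other reads these were 0.968, 1.14, 0.490, 0.630 and 0.847 at point 1 and 2.56, 9.60, 1.43, 2.34 and 7.18 at L. Every L library lay above every point 1 library on both scales. The difference was 2.95 ± 0.44 on the CPM scale (limma, adjusted p = 0.000122) and 2.07 ± 0.52 on the share scale (adjusted p = 0.00404). This call was kept under 13 of 13 alternatives on each scale.

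The other 4 miRNAs that were higher on both scales were almost absent at point 1. Each had reads in 1 point 1 library and in all 5 L libraries, so each met the filter of 6 libraries only through L. Their calls and the separation of their libraries are therefore a description. MiR-99b-5p, of the miR-99 family known from stem and progenitor cells, had 0, 0, 2, 0 and 0 reads at point 1 and 17, 9, 4, 48 and 7 at L, a difference of 3.46 ± 0.73 on the CPM scale (limma, adjusted p = 0.00211). MiR-7652-3p had 1 read in all at point 1 and 15, 3, 2, 26 and 8 at L, a difference of 2.93 ± 0.67 (limma, adjusted p = 0.00428). MiR-148a-3p had 1 read at point 1 and 5, 3, 3, 25 and 5 at L. MiR-10b-5p, encoded among the Hoxd genes, had 1 read at point 1 and 2, 7, 5, 17 and 3 at L. The last pair differed by 2.77 and 2.68 on the CPM scale (limma, adjusted p = 0.00648 and 0.00853). All 4 were higher in 5 of 5 mice in reads, and their L libraries lay above all point 1 libraries in CPM. A miRNA at 3 reads or fewer in a library cannot be given a firm level there. On the share scale miR-148a-3p was not called without mouse 2719, miR-10b-5p without mouse 2708 or 2719 and miR-7652-3p without mouse 2690.

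**Figure D3:**
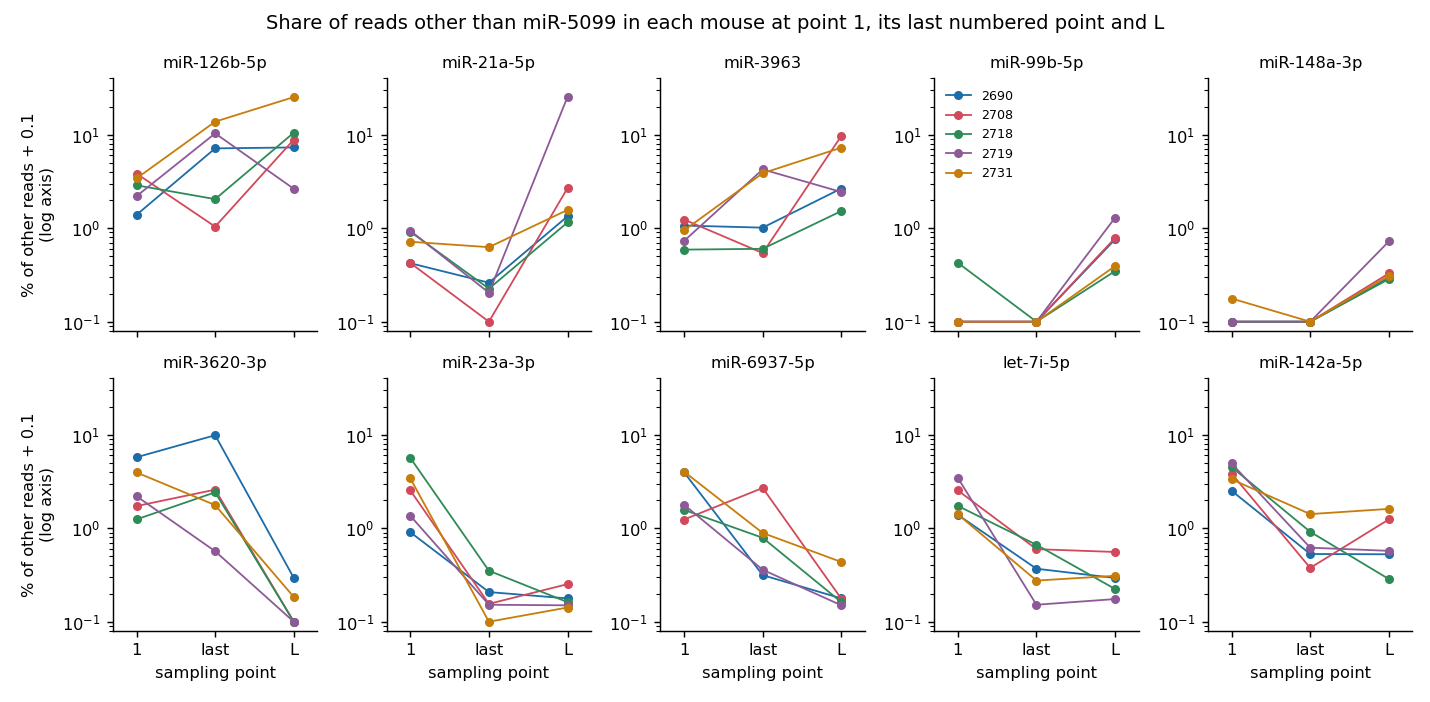
Percent of reads other than miR-5099, plus 0.1, on a log axis for 10 of the 24 miRNAs called on both scales, in the 5 CM mice at point 1, at the mouse's last numbered point and at L. Each line is 1 mouse. MiR-21a-5p, miR-99b-5p and miR-148a-3p rise between the last numbered point and L, miR-3620-3p falls there, and miR-23a-3p, let-7i-5p and miR-142a-5p are already below point 1 at the last numbered point.

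The largest fall was that of miR-3620-3p, from 35, 10, 7, 10 and 50 reads at point 1 to 5, 0, 0, 0 and 2 at L. Its mean percent of other reads was 2.87 ± 1.86 at point 1 and 0.0556 ± 0.0854 at L (SD, n = 5), and every L library lay below every point 1 library. The difference was -4.34 ± 0.57 on the CPM scale (limma, adjusted p = 3.53e-05) and -4.18 ± 0.50 on the share scale (adjusted p = 1.91e-07). Alone among the 17, it was also called lower as a share of all reads (-2.71, edgeR, adjusted p = 0.0150).

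MiR-23a-3p is made from one precursor with miR-27a and miR-24, and the cluster is expressed in hematopoietic cells. It had 5, 15, 34, 6 and 43 reads at point 1 and 2, 2, 1, 2 and 1 at L. The difference was -3.52 ± 0.60 on the CPM scale (limma, adjusted p = 0.000313) and -3.72 ± 0.53 on the share scale (adjusted p = 3.42e-06). The other cluster members measured were not called. MiR-27a-3p had 5, 6, 2, 2 and 13 reads at point 1 and 3, 13, 6, 17 and 23 at L (0.31, limma, adjusted p = 0.695), and miR-24-3p differed by -0.27 (adjusted p = 0.738). The log2 ratio of miR-23a-3p to miR-27a-3p within a library, which no scaling affects, fell by 3.98 ± 2.17 (SD) and was lower at L in 5 of 5 mice (exact permutation test, p = 0.063, the smallest possible). The ratio of miR-23a-3p to miR-24-3p fell by 3.4 in 5 of 5 mice. At L miR-23a-3p had 1 or 2 reads in each library, so the sizes of these falls depend on single reads. They also depend on the fraction of a read that was added to each count in all such ratios.

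Arms of the miR-142a hairpin, which is specific to blood cells, also separated. MiR-142a-5p had 15, 23, 27, 23 and 42 reads at point 1 and 11, 15, 3, 19 and 36 at L. Its share of other reads was 2.42% to 4.83% at point 1 and 0.186% to 1.51% at L, without overlap. The difference was -1.71 ± 0.49 on the CPM scale (limma, adjusted p = 0.0149) and -2.40 ± 0.53 on the share scale (adjusted p = 0.00156), but as a share of all reads it was 1.16 (edgeR, adjusted p = 0.146). MiR-142a-3p, the leading miRNA after miR-5099 at point 1 in 3 of 5 mice, had 41, 71, 77, 29 and 49 reads at point 1 and 380 in all at L, the fewest being 27 in mouse 2718, and was not called on either scale (-0.37, limma, adjusted p = 0.558, and -1.21, adjusted p = 0.110). The log2 ratio of the 3p to the 5p arm rose by 1.36 ± 0.24 (SD) and was higher at L in 5 of 5 mice (exact permutation test, p = 0.063, the smallest possible).

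Within the let-7 family, tumor suppressor miRNAs with a nearly common seed, let-7i-5p fell from 8, 15, 10, 16 and 17 reads to 5, 6, 2, 3 and 5. The difference was -2.30 ± 0.54 on the CPM scale (limma, adjusted p = 0.00486) and -2.78 ± 0.51 on the share scale (adjusted p = 0.000184), and it was 0.35 as a share of all reads (edgeR, adjusted p = 0.692). Let-7j had 5, 6, 4, 10 and 14 reads at point 1 and 3, 3, 3, 3 and 5 at L (-1.69, limma, adjusted p = 0.0266). Let-7f-5p, which had 9, 7, 10, 6 and 12 reads at point 1 and 7, 12, 4, 49 and 26 at L, was not called (-0.17, limma, adjusted p = 0.853). The log2 ratio of let-7i-5p to let-7f-5p fell by 2.21 ± 1.91 (SD) and was lower in 5 of 5 mice (exact permutation test, p = 0.063, the smallest possible). Of the 10 family members listed, which do not include let-7j, 5 were tested and 1, let-7i-5p, was called on each scale, beside 33.1% and 28.3% of all tested miRNAs. The median of the 5 was 0.14 on the CPM scale and -0.61 on the share scale, beside 0.19 and -0.28 over all tested miRNAs.

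MiR-6937-5p fell from 24, 7, 9, 8 and 51 reads to 2, 1, 1, 2 and 8 (-3.20 ± 0.53, limma, adjusted p = 0.000313). MiR-93-5p, of the miR-106b-25 cluster in an intron of Mcm7, had 6, 8, 6, 5 and 9 reads at point 1 and 3, 5, 0, 5 and 4 at L (-1.97, limma, adjusted p = 0.0179). MiR-25-3p of the same cluster, with 11 reads over the L libraries and 6 at point 1, was not called. MiR-451a, an erythroid miRNA, fell from 5, 2, 2, 2 and 10 reads to 0, 0, 1, 1 and 7 (-2.0, limma, adjusted p = 0.0266), and its CPM ranges overlapped. The remaining 9 of the 17 were miR-5100, miR-369-3p, miR-6336, miR-6237, miR-8090, miR-6947-5p, miR-5126, miR-7220-3p and miR-1249-3p, with 10 to 44 reads over all point 1 libraries and 2 to 25 at L. Along with miR-142a-5p and let-7i-5p, the miRNAs miR-5100, miR-369-3p, let-7j, miR-93-5p and miR-451a lay above 0 as a share of all reads (0.14 to 1.19).

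Some abundant miRNAs were not called on both scales, and among the 10 libraries compared the values of miR-7091-5p were set by a single library. MiR-7091-5p had 1318 reads, 51.1% of the reads other than miR-5099, in mouse 2690 at L and 0 to 7 in the other 9 libraries (2.29, limma, adjusted p = 0.136). High counts were not confined to L, since it also had 1011 reads at point 3 of mouse 2690 and 611 at point 2 of mouse 2719. MiR-3473e and miR-3473b, which share 18 bases and had the same read counts at point 1, took 257 and 242 reads in mouse 2718 at L, where miR-3473e led with 15.9% of the reads other than miR-5099. They had 0 to 10 reads each at point 1 and 11 to 257 at L, and were called on the CPM scale alone (2.74 and 2.63, limma, adjusted p = 0.0190 and 0.0232). MiR-485-5p, of the imprinted Dlk1-Dio3 cluster, went from 11, 14, 7, 12 and 13 reads to between 36 and 171 at L and was likewise called on the CPM scale alone (1.86, limma, adjusted p = 0.0121, against 1.00 and adjusted p = 0.159 on the share scale). MiR-191-5p, abundant in blood cells, had 10, 13, 19, 30 and 51 reads at point 1 and 24, 49, 5, 259 and 49 at L and was not called (0.04, limma, adjusted p = 0.966). Leaving miR-7091-5p out of the denominator as well gave 42 calls on the share scale, 15 higher and 27 lower.

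Defining markers of blood lineages were sparse at both points. MiR-223-3p, the myeloid marker, had 1, 1, 0, 0 and 0 reads at point 1 and 0, 0, 0, 0 and 1 at L, and neither of the 2 myeloid markers was tested. The 7 erythroid miRNAs together had 31, 10, 12, 2 and 21 reads at point 1 and 2, 1, 1, 3 and 12 at L. This was 0.420% to 5.00% of other reads at point 1 and 0.0620% to 0.504% at L, and 1 of the 7, miR-451a, was tested and called lower. MiR-486a-5p and miR-486b-5p of this list had the same counts in every library, 8 each in mouse 2690 at point 1. The same reads may therefore be counted for both, which would raise these sums. MiR-150-5p, the lymphocyte marker, had 3, 2, 4, 4 and 6 reads at point 1 and 4, 1, 0, 2 and 5 at L, and was called lower on the share scale alone (-1.78, limma, adjusted p = 0.0137). None of the 9 miRNAs listed for the miR-17-92 cluster and its paralogs was tested, with 1 to 4 reads in all at point 1 and 0 to 7 at L.

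The 7 progenitor miRNAs listed had 0, 1, 4, 0 and 1 reads together at point 1 and 30, 16, 11, 96 and 14 at L. This was 0% to 0.654% of other reads at point 1 and 0.587% to 2.39% at L, and the ranges overlapped. Only miR-99b-5p among them passed the filter, which it met only through its L libraries, and was called higher. MiR-10a-5p had 0, 0, 2, 0 and 0 reads at point 1 and 8, 5, 7, 15 and 0 at L, and miR-125b-5p had 0 reads in every point 1 library and 5, 2, 0, 21 and 1 at L. Among 5 vessel wall miRNAs, miR-10b-5p alone was tested, again only through its L libraries, and was higher. MiR-143-3p had 1 read at point 1 and 6 at L, all in mouse 2719. Among 6 inflammatory miRNAs, 5 were above 0 and miR-21a-5p alone was tested, whereas miR-146a-5p had 4 reads at each point. Of the remaining families listed, miR-26a-5p was called higher on the CPM scale alone (2.14, limma, adjusted p = 0.0176), and miR-29a-3p and miR-221-3p lower on the share scale alone (-1.61 and -1.62, limma, adjusted p = 0.0219 and 0.0366). Beside the 33.1% and 28.3% called over all tested miRNAs, 0 of 4 miR-30 members tested and 0 of 1 miR-15/16 member tested were called. The families of miR-181, miR-101 and miR-103 were too rare to test.

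MiRNAs of epithelial cells were read at L and not in the point 1 libraries. Point 1 libraries held 476 to 1298 reads other than miR-5099 and L libraries 1312 to 4016, so 0 reads at point 1 does not show absence. This list of 7, miR-200a-3p, miR-200b-3p, miR-200c-3p, miR-141-3p, miR-429-3p, miR-203-3p and miR-205-5p, was drawn up after their values were seen. Together they had 0 reads in all 5 point 1 libraries and 173 at L, in each of the 5 mice. As percent of other reads they made up 0.310, 2.52, 0.124, 2.66 and 0.965 at L. Mice 2690, 2708, 2718 and 2731 had 8, 33, 2 and 23 of these, and mouse 2719, with the rest, had 52 reads of miR-200c-3p alone. They had 0 reads in the 15 libraries of points 2, 3, 4 and 6 of the same mice, and 8 reads in 21 libraries of the other mice at points 1 and 7. The deep library at point 5 of mouse 2718, which is not among the 15, had 4011 among 1645456 reads, so these miRNAs were not confined to L in that mouse. MiR-96-5p of the miR-183 cluster, also chosen after its values were seen, had 0 reads at point 1 and 1, 3, 1, 19 and 1 at L. Unlike the epithelial list, it had 6 reads in the 15 libraries of the same mice. In the 21 libraries of the other mice it had 34 reads, in 2 libraries. Its cluster partner miR-183-5p went from 5, 15, 9, 13 and 13 reads to 60, 68, 91, 140 and 27 (1.83, limma, adjusted p = 0.00853 on the CPM scale, adjusted p = 0.149 on the share scale). Against the change to point 7 in Ctrl mice, miR-183-5p was not called on either scale. The difference was 1.26 on the CPM scale (limma, adjusted p = 0.406) and -0.08 on the share scale (adjusted p = 0.968). The part of epithelial cells, or of other cells in the draw, in the values at L was not tested.

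The deep library at point 5 of mouse 2718 is a single library of 1 mouse, and its values are given for comparison only. It held 145 reads of miR-5099 among 1645456. Of the 24 miRNAs, 13 had fewer than 100 reads there, among them miR-3963 with 2, miR-7652-3p with 1, miR-6937-5p with 67 and miR-3620-3p with 0. In contrast, 9 had at least 1000, among them let-7i-5p with 105150, miR-21a-5p with 81879, miR-451a with 32896 and miR-142a-5p with 31488. MiR-3620-3p, miR-369-3p, miR-6336, miR-6237, miR-8090, miR-6947-5p and miR-7220-3p had no read, which allows up to 3 reads by counting error alone. Thus 1 library of another depth ranked these miRNAs differently from the 10 compared, and the cause was not tested.

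To see which changes to L differed from those of mice without L, the change in each CM mouse was set against the change from point 1 to point 7 in Ctrl mice. Of 90 miRNAs tested on the CPM scale 13 were called (14.4%), and of 89 on the share scale 6 were called (6.74%). The median difference between the changes was 0.76 on the CPM scale and -0.25 on the share scale. Of the 24 miRNAs, 21 could be tested, 8 were called on the CPM scale and 6 on the share scale. The change to L is also the one that chose the 24, so these counts are a description. Called on both were miR-3963, miR-3620-3p, miR-23a-3p, miR-93-5p and miR-6937-5p. Let-7i-5p was called on the share scale alone (-2.12, limma, adjusted p = 0.0336), against -1.11 on the CPM scale (adjusted p = 0.313).

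MiR-3963 fell in Ctrl mice, by 1.79 on average with a range of -3.50 to -0.56, and rose in the 5 CM mice by 2.52 to 3.41, so that no mouse of either group overlapped the other. The difference was 4.74 ± 0.83 on the CPM scale (limma, adjusted p = 0.000175) and 3.24 on the share scale (adjusted p = 0.00610). MiR-3620-3p changed by -0.56 in Ctrl mice, with a range of -1.28 to 0.56, and the difference was -3.78 ± 0.64 (limma, adjusted p = 0.000175) and -4.16 on the share scale (adjusted p = 1.51e-06). MiR-23a-3p changed by -0.22 in Ctrl mice and differed by -3.30 ± 0.77 (limma, adjusted p = 0.00375) and -4.0 on the share scale (adjusted p = 1.34e-05). MiR-93-5p differed by -2.76 (limma, adjusted p = 0.0328) and -3.44 (adjusted p = 0.00122), and lost the call on the CPM scale without CM mouse 2718, 2719 or 2731. MiR-6937-5p differed by -2.05 (limma, adjusted p = 0.0482), and lost this call without any 1 of the 5 CM mice.

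MiR-21a-5p and miR-126b-5p differed from Ctrl mice on the CPM scale only. For miR-21a-5p the difference was 3.37 (limma, adjusted p = 0.0328), against 2.0 on the share scale (adjusted p = 0.201) and adjusted p = 0.107 on the CPM scale without mouse 2719. For miR-126b-5p it was 2.88 (limma, adjusted p = 0.0411), against 1.5 on the share scale (adjusted p = 0.326), and the CPM call was lost without any 1 of CM mice 2690, 2719 or 2731. MiR-142a-5p and miR-451a were not called against Ctrl mice. The changes in Ctrl mice were -1.11 and -1.78, and the differences -0.60 (limma, adjusted p = 0.589) and -0.22 (adjusted p = 0.848). MiR-6237, miR-8090, miR-5100 and miR-6336 were not called either. They changed by -2.64, -2.85, -1.38 and -2.19 in Ctrl mice, beside -2.37, -2.33, -1.43 and -2.71 to L in the CM mice. The remaining lower miRNAs that were not called on the CPM scale fell less in Ctrl mice than in the CM mice. In Ctrl mice alone, 12 miRNAs were called between points 7 and 1 on the CPM scale (8.96%), all lower, and 0 on the share scale (0.0%), with 26 at an unadjusted limma p under 0.05.

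Against the 4 CM mice without L in place of Ctrl mice, 18 of 90 miRNAs were called on the CPM scale (20.0%) and 7 of 89 on the share scale (7.87%). On the CPM scale miR-3963 differed by 4.82 (limma, adjusted p = 0.00151), miR-3620-3p by -3.80 (adjusted p = 0.00138), miR-21a-5p by 4.18 (adjusted p = 0.0115) and miR-23a-3p by -3.14 (adjusted p = 0.0115). MiR-93-5p differed by -0.67 on the CPM scale and was not called (limma, adjusted p = 0.621). On the share scale miR-3963, miR-3620-3p and miR-23a-3p were called as well, but miR-21a-5p was not (2.66, limma, adjusted p = 0.0999). Both comparisons share the 5 mice with L.

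**Figure D4:**
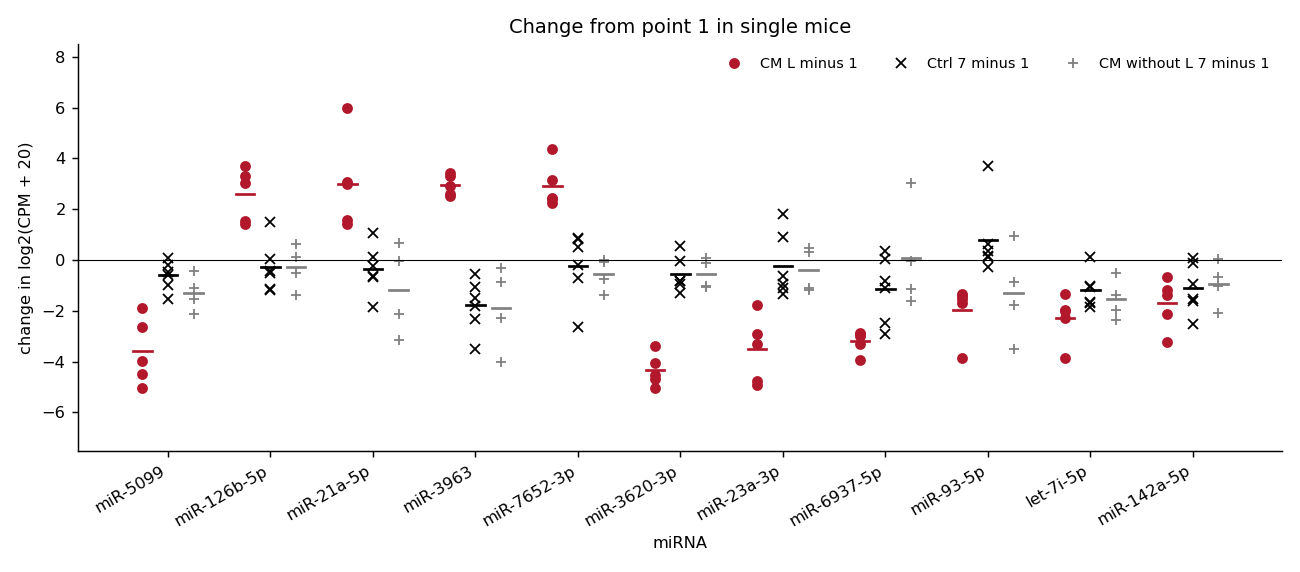
Change in log2(CPM + 20) from point 1, to L in the 5 CM mice (red circles) and to point 7 in the 6 Ctrl mice (black crosses) and 4 CM mice without L (grey plus signs), for miR-5099 and 10 of the 24 miRNAs. Each symbol is 1 mouse and short lines are means. For miR-3963 all CM mice with L rose by 2.52 or more while all Ctrl mice fell, and for miR-142a-5p and let-7i-5p the groups overlap.

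The last step was separated from the earlier course by comparing L with the last numbered point of the same mouse. On the CPM scale 14 of 144 miRNAs were called (9.72%), 4 higher and 10 lower, and on the share scale 18 of 143 (12.6%). On both scales 13 were called. MiR-21a-5p, with 3, 0, 2, 2 and 6 reads at the last numbered point, was 4.35 higher at L (limma, adjusted p = 8.09e-06). MiR-26a-5p, with 1, 0, 1, 4 and 3 reads there and 8, 49, 9, 167 and 22 at L, was 3.62 higher (limma, adjusted p = 0.000122). MiR-30d-5p, with 1 read there in all, had 4, 15, 3, 27 and 5 at L (3.17, limma, adjusted p = 0.000122), and miR-99a-5p had 1 read there and 14, 2, 2, 34 and 1 at L (2.65, limma, adjusted p = 0.00118). These 4 were the only ones called higher at L on both scales. MiR-30d-5p and miR-99a-5p met the filter only because every L library had reads of them, so their calls are a description. MiR-30d-5p had also fallen from point 1 to the last numbered point (-1.79 on the CPM scale, limma, adjusted p = 0.0237). Between point 1 and L it was not called on the share scale (0.60, limma, adjusted p = 0.425).

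MiR-3620-3p led the 9 that were lower, with 182, 45, 37, 9 and 19 reads at the last numbered point, a difference of -4.68 (limma, adjusted p = 4.74e-07). MiR-6237 and miR-6336 both differed by -3.42 (limma, adjusted p = 0.000122), and miR-7220-3p by -2.39 (adjusted p = 0.00544). MiR-151-3p, not among the 24, had 13 reads over the L libraries and was high at the last numbered point in mice 2708 and 2718 only (-3.34, limma, adjusted p = 0.000290). Of the 24, 17 could be tested here, and miR-21a-5p, miR-3620-3p, miR-6237, miR-6336 and miR-7220-3p were called on both scales. This comparison shares the L libraries with the one that chose the 24, so these calls are a description. MiR-99b-5p and miR-148a-3p, which had 0 reads in every mouse at the last numbered point, did not pass the filter.

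The earlier course was compared in the same way. From point 1 to the last numbered point 21 miRNAs were called on the CPM scale (15.9%) and 24 on the share scale (18.3%), 18 on both. Of the 24, 21 were tested, and miR-23a-3p, miR-142a-5p, let-7i-5p, let-7j, miR-93-5p, miR-451a and miR-1249-3p were called lower and miR-7652-3p higher on both scales. The 24 were chosen on differences from the same point 1 libraries, so that a high or low value there enters both comparisons, and nothing is read from this number of calls. MiR-23a-3p had 2, 1, 4, 1 and 0 reads at the last numbered point, a difference of -3.72 from point 1 (limma, adjusted p = 0.00103), and 0.20 from there to L (adjusted p = 0.957). MiR-142a-5p changed by -2.02 to the last numbered point (limma, adjusted p = 0.0227) and by 0.31 from there (adjusted p = 0.916). MiR-126b-5p had between 17 and 197 reads at the last numbered point and was called in neither step (1.36, limma, adjusted p = 0.117, and 1.23, adjusted p = 0.385). The steps also share the last numbered libraries.

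The training cohort, other mice sequenced at greater depth, gave a view of the same miRNAs between month 0 and the last library of 7 CM mice. There 147 of 446 miRNAs were called, 72 higher (16.1%) and 75 lower (16.8%). Of the 24, 15 were tested, 8 had the same sign as at L, and 42 of all 66 miRNAs tested in both cohorts did (63.6%). MiR-451a (-0.85, edgeR, adjusted p = 0.0162) and miR-1249-3p (-2.23, adjusted p = 0.00665) were called lower in both cohorts. MiR-93-5p was called in the opposite direction (0.70, edgeR, adjusted p = 0.0431). MiR-21a-5p differed by 0.49 ± 0.19 (edgeR, adjusted p = 0.0746), miR-142a-5p by -0.50 ± 0.19 (adjusted p = 0.0708), miR-23a-3p by -0.34 ± 0.31 (adjusted p = 0.414) and miR-3963 by 0.54 ± 0.78 (adjusted p = 0.618). MiR-5099 differed by -0.41 (edgeR, adjusted p = 0.509), and miR-126b-5p and miR-3620-3p were not tested there. MiR-126a-3p, near 0 in the 10 libraries compared, was 3.52 ± 0.62 higher in the last training libraries than at month 0 (edgeR, adjusted p = 0.00665).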

How the data were processed

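Per the labels, small RNA libraries were made from 280 ng of PBMC RNA, with inserts of 17 to 35 nt and 13 PCR cycles. Per the study's methods, the authors trimmed adapters with cutadapt, aligned reads with Bowtie and scaled CPM by TMM in edgeR. The genome is mm9 in the methods and GRCm38 in the submitters' processing notes. Deposited validation CPM columns have unequal sums, so the values were treated as a scaled signal. They were whole multiples of the worth of 1 read, which the authors do not state, in 45 of 47 columns used (10870 of 10870 values within 0.01 reads). Reads were recovered from these steps, and 1 read equals 16.9 to 63.6 CPM in the 10 libraries. Intervals and the limit of 3 reads cover counting error only. Deposited training counts were whole numbers.

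MiRNAs above 0 in 6 of 10 libraries were tested with limma-trend 3.58.1 (R 4.3.3) with the mouse as a block and Benjamini-Hochberg adjustment. Training counts were tested with edgeR 4.0.16. Reads were also tested with edgeR and DESeq2 1.42.0. The pairing comes from libraries of the same animal. The design assumed CPM, and its log-scale test was kept. Fits were tested on simulated data of far greater depth than these libraries, so that test does not show how they behave at this depth. Members, lists and tests were chosen with earlier results of these data known. Named were miR-5099 and miR-126, miRNAs called on both scales (up to 12 per direction by mean CPM), 5 each called on 1 scale, the 15 with the highest mean share, and up to 4 per list. MiR-99a-5p, miR-151-3p, miR-96-5p, miR-3968, miR-302b-5p, miR-8093, miR-8090, miR-6947-5p, miR-5126, miR-7220-3p, miR-1249-3p and the epithelial miRNAs were named after their values were seen.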

Additional observations from a re-analysis of the deposited data

Results flagged for a closer look

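Each of the following values stood out for a closer look, and no explanation was tested. Within a group of 5 libraries the ratio of the largest gap to the range, on log2(CPM + 20), exceeded the 95% critical value for several of the 24 miRNAs and miR-5099. For normally distributed values chance alone does this in about 1 in 20 groups. That rate does not hold for counts that are mostly at or near 0. At L the ratio was 0.877 for miR-21a-5p, where mouse 2719 had 1020 reads and the others 17 to 35. It was 0.763 for miR-93-5p, where mouse 2718 had 0 reads, and 0.746 for miR-148a-3p, where mouse 2719 had 25. It is always 1 where 4 of 5 libraries have no read, whatever the count in the other, so such a ratio is no sign of an outlier. This was the case at L for miR-8090 (3 reads in mouse 2718) and miR-5126 (2 reads in mouse 2731). It was also 1 at point 1 for miR-99b-5p (2 reads in mouse 2718), miR-7652-3p (1 read in mouse 2719), miR-148a-3p and miR-10b-5p (1 read each in mouse 2731).

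The change to L in the CM mice differed from the change to point 7 in Ctrl mice on the CPM scale for 13 miRNAs (limma, adjusted p under 0.05). MiR-3963 (4.74), miR-3968 (3.84), miR-21a-5p (3.37), miR-7652-3p (3.15), miR-302b-5p (2.93), miR-126b-5p (2.88), miR-8093 (2.80) and miR-615-5p (2.30) lay above Ctrl mice. MiR-3620-3p (-3.78), miR-23a-3p (-3.30), miR-5099 (-2.99), miR-93-5p (-2.76) and miR-6937-5p (-2.05) lay below. Of these, miR-3968, miR-302b-5p and miR-8093 are named only because they belong to this count.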

How the results depend on the processing

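Counts of called miRNAs moved with the filter, the pseudocount and single mice. On the CPM scale the 40 calls became 17 with a pseudocount of 1 CPM, 24 with values above 0 in 8 of 10 libraries and 76, of which 75 higher, on all reads without TMM. Leaving out 1 mouse gave 25 to 45, with 25 without mouse 2690. Without the replicate block, which pairs the libraries of 1 mouse, 42 were called, and 38 in place of 34 on the share scale. Recovered reads gave 37 calls with edgeR and TMM, 22 higher and 15 lower, and 30 with DESeq2, 11 higher and 19 lower. On the share scale the 34 calls became 21 with values above 0 in 8 of 10 libraries and 20 to 36 without 1 mouse, with 20 without mouse 2719. EdgeR on the reads other than miR-5099 gave 30, 4 higher and 26 lower, and with TMM on these reads 37, 22 higher and 15 lower. Several of these alternatives (all reads, TMM on other reads, leaving out miR-7091-5p) were chosen after seeing the data.

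On all reads without TMM, 12 of the named miRNAs changed sign against the CPM scale: miR-142a-5p 1.16, let-7i-5p 0.35, miR-5100 1.19, miR-369-3p 0.76, let-7j 0.87, miR-93-5p 0.79, miR-451a 0.14, miR-7667-5p 2.01, miR-5619-3p 1.82, miR-142a-3p 2.53, let-7f-5p 2.72 and miR-24-3p 2.56. With edgeR and TMM on the same reads the median over all tested miRNAs was 0.32, against 2.84 without TMM.

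Against Ctrl mice the 13 calls became 6 on the share scale, 4 with a pseudocount of 1 CPM and 7 against CM mice without L on the share scale. They were 5 to 11 without 1 CM mouse, 5 without mouse 2719 and 6 without mouse 2731, and 8 to 12 without 1 Ctrl mouse, 8 without mouse 2683. Against the last numbered point the 14 calls were 10 to 15 without 1 mouse and 15 without the block. The 147 training calls became 174 without the block, 222 with DESeq2 and 64 to 193 without 1 mouse. The change of miR-5099 in log2 odds lay between -5.0 and -4.03 without 1 mouse. The causes of these moves were not tested. Depth limits all of it: the median of the tested miRNAs was 2 reads per library.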
